A study of Rattus norvegicus with 8 samples.

Results

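Oxidative phosphorylation makes most of the ATP of a neuron, and its machinery was read here in the medial thalamus of 8 rats on 2-colour oligonucleotide arrays. The genes were taken by name: every probe outside the control spots whose gene name begins with Nduf, Sdha to Sdhd, Uqcr, Cox4 to Cox8 or Atp5. That rule uses no measured value. It found 81 probes under 71 gene names, out of 41012 probes under 35561 names on the array. By prefix they fall into complex I (36 probes, 32 genes), complex II (4 probes, 4 genes), complex III (7 probes, 5 genes), complex IV (19 probes, 16 genes) and complex V (15 probes, 14 genes).

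All 8 animals were male Sprague-Dawley rats of 277 g, anaesthetised with urethane, and each wore a tracheal cuff that could be inflated. In the 4 occlusion animals the cuff closed the airway for 2 to 4 breaths and then opened for at least 15 breaths, over and over for 10 min, and the brain was taken at once. In the 4 surgical control animals the cuff stayed deflated, and the brain was taken 70 min after the surgical setup. The RNA of 1 animal was labelled with Cy5 on each array, and pooled RNA of the 8 animals with Cy3, with no dye swap, so each value below is a log2 ratio of an animal to the pool and each difference is occlusion minus control on that log2 scale. Both groups shared anaesthesia and surgery, and the comparison asks what the occlusions added. Urethane was the only agent named, and all animals received it. The labels do not say how long after the setup the occlusion animals were taken.

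The respiratory chain sits in the inner mitochondrial membrane. Complex I takes electrons from NADH and complex II takes them from succinate; both pass them to ubiquinone, complex III hands them to cytochrome c, and complex IV gives them to oxygen. Complexes I, III and IV pump protons, and complex V lets the protons flow back to make ATP. A few core subunits are encoded in mitochondrial DNA, whereas the genes described here are nuclear. Many of their promoters are known to be bound by the activators NRF-1 and NRF-2, the latter an ETS factor also called GABP, and the coactivator PGC-1alpha acts through such factors.

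Promoter sequence is shown first because it is a feature that the rule did not use and that most of these genes could share. Of the 71 genes, 62 had a window in the RefSeq promoter table (build GRCr8) that runs from 250 bases before to 50 bases after the gene start. The letters searched, on both strands, were GCGCA, any base and then GCGC for NRF-1, CCGGAAG for ETS factors and TATAAA for the TATA box. NRF-1 letters stood in 14 of the 62 windows (22.6%) and in 4.25% of all 33469 windows of that length. ETS letters stood in 19 windows (30.6%), against 8.75% of all windows. One or the other stood in 32 (51.6%), against 12.2% of all windows. The TATA letters stood in 4 windows (6.45%), against 14.2% of all. No NRF-1 match overlapped an ETS match in these windows. A match is a run of letters, not a site at which a factor was shown to sit. The windows compared were not matched for base composition or class of gene. The shares therefore cannot show whether an excess is particular to these genes.

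The 4 succinate dehydrogenase genes are printed because complex II had the highest median difference of the 5 complexes. The 120 bases before each start are given 5' to 3' on the gene's strand, with NRF-1, ETS or TATA letters in capitals.
Sdha, chr1:30764433-30764552, plus strand: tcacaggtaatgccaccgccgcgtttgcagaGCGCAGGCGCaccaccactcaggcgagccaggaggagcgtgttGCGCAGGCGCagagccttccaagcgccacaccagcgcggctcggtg
Sdhb, chr5:158547814-158547933, plus strand: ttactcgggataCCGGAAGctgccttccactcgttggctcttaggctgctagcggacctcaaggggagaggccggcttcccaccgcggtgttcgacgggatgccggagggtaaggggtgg
Sdhc, chr13:86098026-86098145, minus strand: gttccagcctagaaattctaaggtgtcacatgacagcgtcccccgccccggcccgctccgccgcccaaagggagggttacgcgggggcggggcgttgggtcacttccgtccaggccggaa
Sdhd, chr8:59850642-59850761, minus strand: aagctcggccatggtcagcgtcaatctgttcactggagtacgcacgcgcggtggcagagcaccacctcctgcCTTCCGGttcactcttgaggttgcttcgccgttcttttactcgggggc
Sdha carried the NRF-1 letters at a pair of places in this stretch and Sdhb and Sdhd carried ETS letters, whereas Sdhc, the member with the highest difference of all 80 tested probes, carried none of these letters there. Promoters of other complexes are shown for contrast. Atp5i, now Atp5me, was the only gene whose window held both NRF-1 and ETS letters; the same held for 0.816% of all windows. Ndufa11 carried NRF-1 letters in overlapping copies. Cox8h, now Cox8b and the heart form of a complex IV subunit, carried a TATA box and neither of the other motifs.
Atp5me, chr14:1464740-1464859, plus strand: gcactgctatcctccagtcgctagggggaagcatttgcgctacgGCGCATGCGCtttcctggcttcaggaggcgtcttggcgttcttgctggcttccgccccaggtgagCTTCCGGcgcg
Ndufa11, chr9:1637494-1637613, plus strand: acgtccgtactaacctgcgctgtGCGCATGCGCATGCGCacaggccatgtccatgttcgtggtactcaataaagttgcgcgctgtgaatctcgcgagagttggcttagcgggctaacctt
Cox8b, chr1:205408274-205408393, minus strand: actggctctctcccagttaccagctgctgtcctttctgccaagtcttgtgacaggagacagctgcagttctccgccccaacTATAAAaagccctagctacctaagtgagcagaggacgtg
By complex, NRF-1 letters were found in 7 of 29 windows of complex I, 1 of 4 of complex II, 1 of 4 of complex III, 0 of 12 of complex IV and 5 of 13 of complex V. ETS letters were found in 7, 2, 2, 5 and 3 of the same windows. The complex IV count takes in Cox4i1 and Cox4nb, whose windows lie head to head and share 247 bases, so the same ETS letters count for both.

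Most of these genes gave strong signals. Of the 81 probes, 78 (96.3%) stood well above background in Cy5 on all 8 arrays, against 64.8% of all probes. None of their spots was flagged as saturated in Cy5, and saturation in Cy3 was not counted. The fit covered 80 of the 81 probes. Cox6b was left out because it was above background on 1 array only, at a median Cy5 signal of 1.59 times its background. The array files pair the name Cox6b with a description of a uroplakin transcript at that probe, so its signal is not taken as a reading of the complex IV subunit. The dimmest tested members were tissue-specific forms: Cox6b2, the testis form of a complex IV subunit, and the 3 probes of Cox8h. Control animal 3 stood apart from the other 7 in its tissue markers: the thalamic relay neuron list averaged -1.96 there and -0.23 to 0.22 elsewhere, the cortical projection neuron list 1.17 against -0.66 to -0.28, the meningeal list 0.83 against -0.49 to 0.18, the choroid plexus and ependyma list -1.70 against -0.90 to 0.87, and the inhibitory neuron list 0.84 against -0.96 to 0.45. Of 10 relay neuron markers on the array, 9 were above background on all 8 arrays. The mean of the 80 oxidative phosphorylation probes in control 3 was -0.0007, inside the -0.022 to 0.089 of the other 7 animals, but it averages complexes that went opposite ways: complex II was lower there than in the other 7 and complex IV higher. Results are given with control 3 and, where it bears on them, without it. A bulk sample cannot tell fewer cells of a type from less RNA per cell.

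No oxidative phosphorylation probe passed the test. Under limma with Benjamini-Hochberg adjustment over 31690 probes, 0 of 80 had an adjusted p under 0.05, as had 0% of all tested probes, and the smallest adjusted p was 0.977 for members and for the whole array. At an unadjusted p under 0.05 there were 2 of 80 (2.5%), against 3.06% of all tested probes. Both lay lower under occlusion, as did 1.25% of all probes at that p, with 1.81% higher. Each slide held 2 animals of either group, and the probes under that p were others with the slide as a block. In that limma fit, Ndufv1 (unadjusted p = 0.0549) and Cox4i2 (0.0512) no longer passed, whereas Sdhc (0.0398) and Atp5i (0.0461), both higher, and Cox6b2 (0.0248), lower, did; none had an adjusted p under 0.05. Groups that did not overlap were seen at the same 2 probes (2.5%), Ndufv1 and Cox4i2, against 2.5% of all, of which 1.23% were higher and 1.27% lower. At Ndufv1 this rests on 3 occlusion animals, because the outlier spot of occlusion 2 was dropped. An absolute difference over 0.25 was seen at 2 probes, Sdhc and Cox6b2, against 7.63% of all tested probes. The first shares lie near the background and the last below it. Differences were above 0 at 42 probes and below 0 at 38, which is 52.5% above, against 50.7% of all probes. That split was 55 to 25 when each array was centred on its median in place of loess, and 33 to 47 with arrays weighted by quality. The median difference was 0.005, beside 0.0019 over all tested probes. The occlusion animals averaged 0.038 ± 0.046 over the 80 probes and the control animals 0.035 ± 0.033 (SD, n = 4 animals each).

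The precision allows a bound as well as a count. The 95% interval of the difference lay within 1.5-fold either way at 79 of the 80 probes (98.8%), against 88% of all tested probes. The exception was Ndufa7, an accessory subunit of complex I, with a difference of 0.20 and an interval of -0.21 to 0.60. The count within 1.5-fold stayed at 79 with the slide as a block or with array weights. It was 73 of 80 with median centring and 75 of 80 with the scanner software's ratios. With those ratios the difference of the dim Cox6b2, -0.26 in the main fit, was -0.71, itself past the bound of 0.585. The bound thus depends on the processing for that probe. Without occlusion 3 the count was 74 of 79, within slide 1 alone 63 of 74 and within slide 2 alone 71 of 76. The median standard error was 0.090 for members and 0.097 for all probes. The members' spots were bright. Among the 966 other probes at least as bright as the median member, the median standard error was 0.12 and 85.4% had an interval within 1.5-fold. Of 633 single member values, 628 (99.2%) lay within 0.5 of the pool, and the farthest was 0.65 away.

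**Figure D1:**
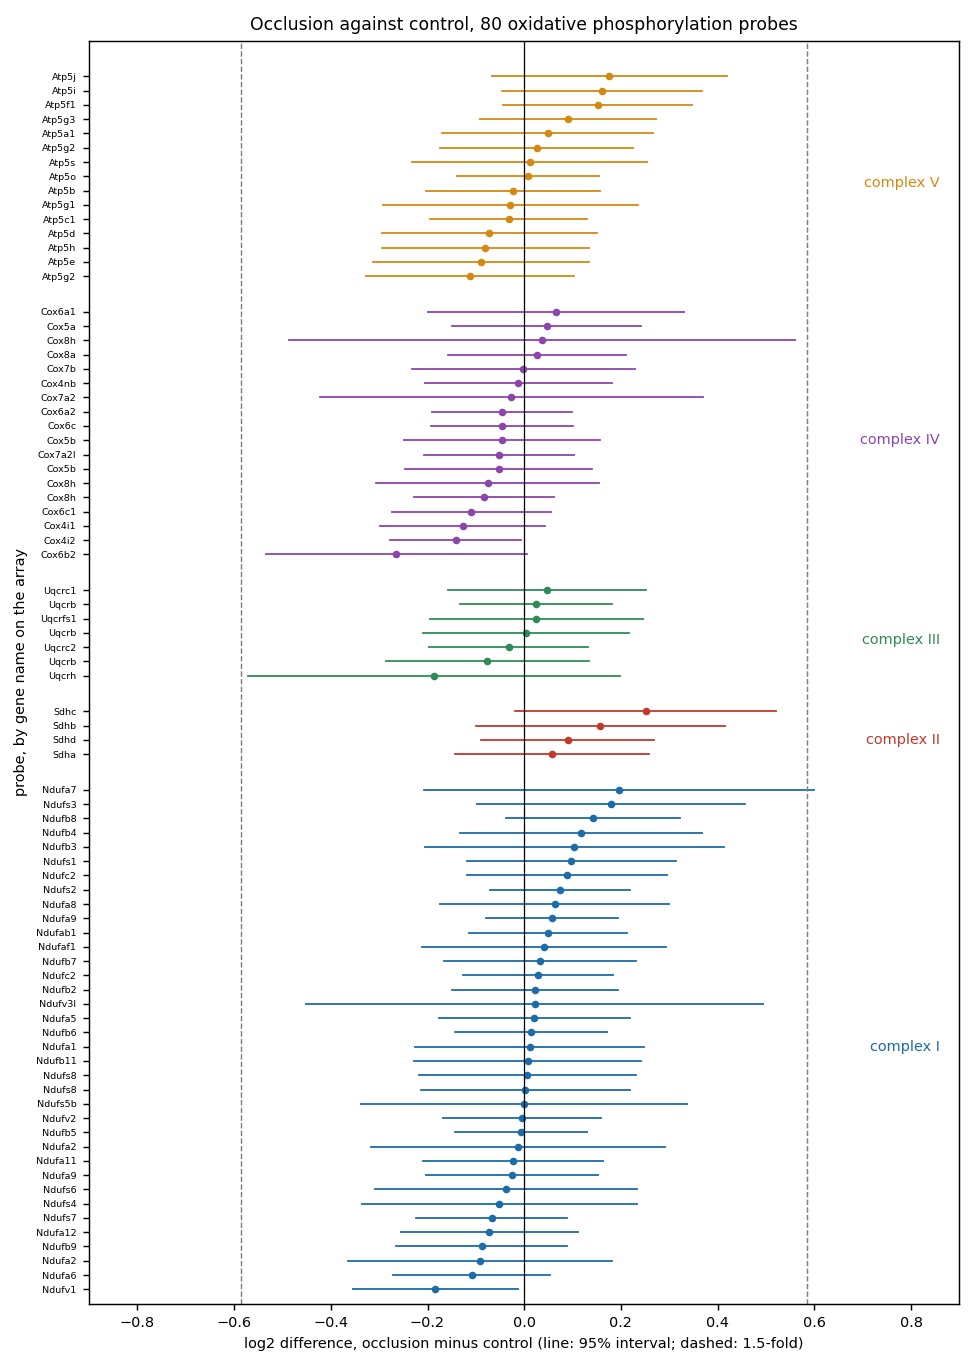
Log2 difference, occlusion minus control, at each of the 80 tested probes (point) with its 95% interval (line), grouped and coloured by complex; dashed lines mark 1.5-fold. Only the line of Ndufa7 crosses a dashed line, at 0.60, and the 4 complex II points all lie right of 0 while 14 of 18 complex IV points lie left of it.

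Complex I, NADH dehydrogenase, had 22 probes above 0 and 14 below, with a median difference of 0.013. Its 7 core genes, which carry the flavin and the iron-sulfur clusters along which electrons travel, gave 8 probes with 5 above 0, between -0.18 and 0.18. The 9 Ndufb genes, which sit in the membrane arm, gave 7 above 0 and a range of -0.088 to 0.14. The 18 probes of other accessory subunits split evenly, with 9 above 0. Only 1 complex I probe of 36 (2.78%) had an unadjusted p under 0.05.

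That probe was Ndufv1, the flavoprotein that takes electrons from NADH (build rn3, chr1:206743451-206743474). It read -0.15, -0.13 and -0.26 in occlusion animals 1, 3 and 4 and -0.076, 0.082, -0.013 and 0.017 in control animals 1 to 4; the spot of occlusion animal 2 was an outlier and was dropped. The 3 measured occlusion animals all lay below the 4 controls. The difference was -0.18 (SE 0.074, 0.88-fold, limma's unadjusted p = 0.0374, adjusted p = 0.977). Without control 3 it was -0.19, and with the dropped spot kept it was -0.12 (unadjusted p = 0.158). Ndufs1, the largest iron-sulfur subunit, read -0.032, -0.15, -0.0050 and -0.22 in occlusion animals 1 to 4 and -0.045, -0.092, -0.41 and -0.25 in control animals 1 to 4. Control 3 was the lowest of the 8 there, and the groups overlapped, with a difference of 0.098 (SE 0.096) that was 0.028 without that animal. Ndufs3, another core subunit, read -0.19, 0.040, 0.25 and 0.065 in occlusion animals 1 to 4 and -0.20, 0.046, -0.0089 and -0.39 in control animals 1 to 4. The groups overlapped, and its difference of 0.18 (SE 0.12) was the highest among the core subunits.

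Ndufb8, a membrane arm subunit, read 0.013, -0.013, 0.23 and 0.015 in occlusion animals 1 to 4 and 0.018, -0.18, -0.043 and -0.11 in control animals 1 to 4. Occlusion 3 stood above the other occlusion animals, and the difference was 0.14 (SE 0.080). Ndufa6, an accessory subunit of the peripheral arm, read -0.12, -0.11, 0.050 and -0.037 in occlusion animals 1 to 4 and 0.18, 0.018, 0.036 and -0.016 in control animals 1 to 4, a difference of -0.11 (SE 0.072). The groups overlapped at both genes. Ndufab1, the mitochondrial acyl carrier protein, read 0.12, 0.12, 0.19 and 0.13 in occlusion animals 1 to 4 and 0.11, 0.074, -0.049 and 0.23 in control animals 1 to 4; its occlusion animals lay inside the control range, at a difference of 0.049 (SE 0.072). Ndufa7 had the largest range of complex I, 0.87 over the 8 animals, and read -0.033, 0.15, 0.40 and 0.38 in occlusion animals 1 to 4 and 0.35, 0.19, -0.47 and 0.036 in control animals 1 to 4. Its low value was control 3, and without that animal the difference went from 0.20 to 0.031. Ndufv3l, the old name of the small flavoprotein subunit Ndufv3, ranged almost as far, from -0.43 in occlusion 1 to 0.44 in occlusion 3, with a difference of 0.022 (SE 0.21). Ndufaf1, an assembly factor that the prefix also takes, had a difference of 0.041 (SE 0.11).

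Complex II, succinate dehydrogenase, was the only complex whose probes all lay on 1 side of 0: 4 of 4 above it, with a median difference of 0.12. None of the 4 passed the test, and no p was computed for the complex. Sdhc and Sdhd anchor the enzyme in the membrane and form the ubiquinone site. Sdhc (build rn3, chr13:87203494-87203553) read 0.15, 0.089, 0.072 and 0.26 in occlusion animals 1 to 4 and -0.041, 0.19, -0.20 and -0.39 in control animals 1 to 4. The occlusion animals lay close together and the controls were spread, with control 2 among the occlusion values. The difference was 0.25 (SE 0.12, 95% interval -0.019 to 0.52, 1.19-fold, limma's unadjusted p = 0.065), and 0.22 without control 3. It was 0.41 within slide 1 and 0.088 within slide 2. Sdhd read 0.065, -0.097, -0.20 and -0.17 in occlusion animals 1 to 4 and -0.25, -0.15, -0.10 and -0.26 in control animals 1 to 4, and its groups overlapped at a difference of 0.090 (SE 0.079).

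Sdhb holds the iron-sulfur clusters and Sdha the flavin that oxidises succinate. Sdhb read 0.072, 0.053, 0.060 and 0.11 in occlusion animals 1 to 4 and 0.0018, -0.43, -0.056 and 0.14 in control animals 1 to 4. Its occlusion animals lay close together while control 2 lay far below the other controls, and the difference was 0.16 (SE 0.11). Sdha read 0.34, 0.20, 0.16 and 0.063 in occlusion animals 1 to 4 and 0.26, 0.18, -0.043 and 0.13 in control animals 1 to 4. Control 3 was the lowest value there; the difference was 0.058 (SE 0.089) with it and -0.0007 without it. Averaged over the 4 probes, the log2 ratio was 0.16, 0.062, 0.022 and 0.062 in occlusion animals 1 to 4 and -0.0071, -0.052, -0.10 and -0.093 in control animals 1 to 4. These means did not overlap, the group means being 0.076 ± 0.057 and -0.063 ± 0.043 (SD, n = 4 animals each). How often the means of 4 other probes part the groups was not counted, and complex II was singled out for its high median. Without control 3, and in Cy5 alone, 3 of its 4 probes lay above 0. The choroid plexus and ependyma list also lay higher under occlusion, at all 8 tested of its 10 genes, with a median difference of 0.83. In limma's fit 4 of the 8 had an unadjusted p under 0.05 and 0 an adjusted p under 0.05. Over all tested probes 3.06% had such an unadjusted p, with 1.81% higher. That list averaged -0.81 to 0.87 in occlusion animals, with occlusion 3 highest, and -1.70 to -0.51 in controls, with control 3 lowest. Relay neuron markers lay above 0 at 10 of 10 tested genes (median 0.40) and oligodendrocyte markers at 8 of 8 (0.055). Cortical projection neuron markers lay below 0 at 10 of 10 (median -0.36) and red blood cell markers at 4 of 4 (-0.41). The relay and cortical differences rest on control 3. Its relay mean was -1.96, with the other controls at 0.098 to 0.22 and occlusion animals at -0.23 to 0.16. Its cortical mean was 1.17, with the other controls at -0.63 to -0.59 and occlusion animals at -0.66 to -0.28. The part of these lists in the complex II difference was not tested. A different animal was lowest at almost every gene: control 3 for Sdha, control 2 for Sdhb and control 4 for Sdhc and Sdhd. Within slide 1 (occlusion 1 and 2, control 3 and 4) the median difference of complex II was 0.20, with 4 of 4 above 0. Within slide 2 (occlusion 3 and 4, control 1 and 2) it was 0.051, with 3 of 4 above 0.

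**Figure D2:**
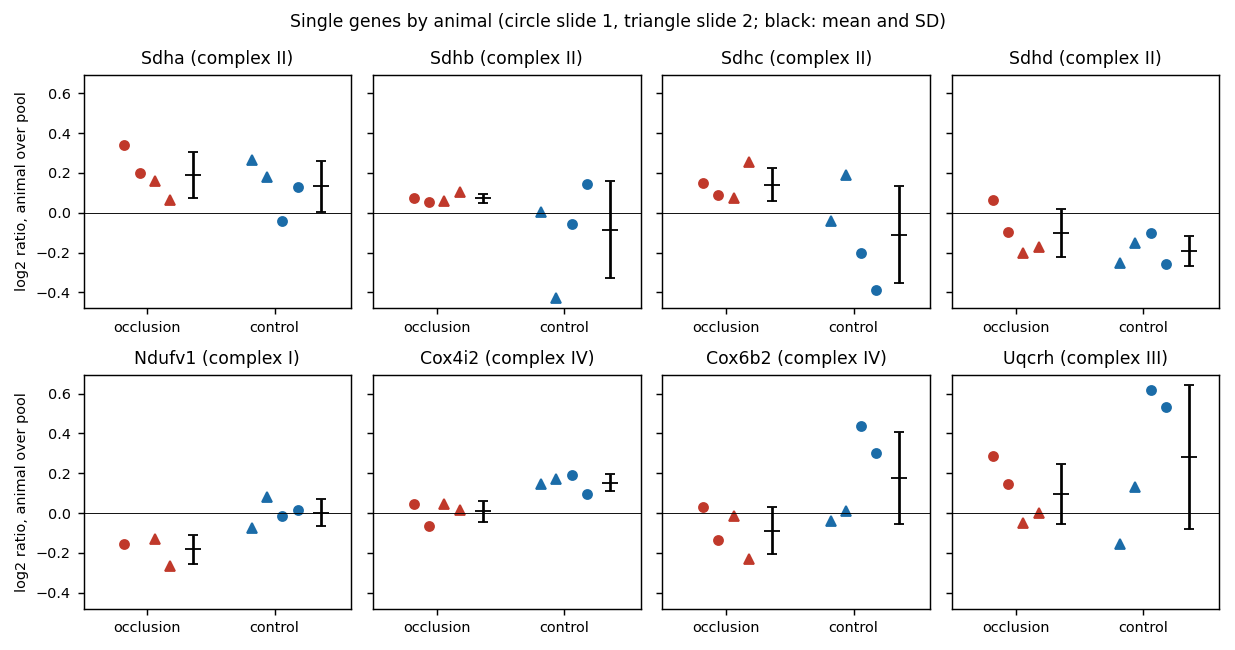
Log2 ratio of each animal to the pool for 8 single genes, circles for slide 1 and triangles for slide 2, with the mean and SD of each group in black. The animals shown do not overlap between groups at Ndufv1 and Cox4i2. At Ndufv1 the outlier spot of occlusion 2 was dropped and is not shown. At Uqcrh the 2 highest controls, at 0.53 and 0.62, are both of slide 1.

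Complex III, the cytochrome bc1 complex, had 4 of 7 probes above 0 and a median of 0.0035. The smallest unadjusted p of the complex was 0.301 in limma's fit. Uqcrfs1, the Rieske iron-sulfur protein, read -0.074, 0.052 and 0.093 in occlusion animals 1, 3 and 4 and -0.022, 0.089, -0.19 and 0.12 in control animals 1 to 4, with the spot of occlusion 2 dropped and a difference of 0.025 (SE 0.095). The core proteins Uqcrc1 and Uqcrc2 had differences of 0.047 (SE 0.090) and -0.032 (SE 0.072). The controls of Uqcrc1 spanned -0.35 to -0.11 and its occlusion animals -0.34 to -0.035, which is nearly the same span. Uqcrb, the ubiquinone-binding protein, had 3 probes with differences of 0.025, 0.0035 and -0.077, so its probes did not share a sign. Uqcrh, the hinge protein that helps dock cytochrome c, was the most variable gene of the complex and read 0.29, 0.15, -0.052 and -0.0003 in occlusion animals 1 to 4 and -0.15, 0.13, 0.62 and 0.53 in control animals 1 to 4. Both high controls and both higher occlusion animals were on slide 1. Its difference was -0.19 (SE 0.17) over all 8 animals, -0.36 within slide 1 and -0.014 within slide 2.

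Complex IV, cytochrome c oxidase, had most probes below 0: 14 of 18 tested probes lay below 0 and 4 above, with a median of -0.046. Averaged over the 18 probes, the log2 ratio was -0.017, -0.013, 0.062 and -0.026 in occlusion animals 1 to 4 and 0.0020, 0.025, 0.099 and 0.082 in control animals 1 to 4. These means overlapped, at 0.0017 ± 0.041 against 0.052 ± 0.046 (SD, n = 4 animals each). The median was -0.092 within slide 1, with 15 of 18 below 0, and -0.0081 within slide 2, with 10 of 18 below 0. Centring each array on its median in place of loess brought the median of complex IV to -0.0024 and the split to 10 below and 8 above.

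Cox4i1 and Cox4i2 are alternative forms of the subunit through which ATP inhibits the enzyme; the first is found in all tissues, and the second is known from lung and from brain pericytes and responds to low oxygen in cultured cells. Cox4i2 (build rn3, chr3:143019685-143019744) read 0.044, -0.066, 0.046 and 0.015 in occlusion animals 1 to 4 and 0.15, 0.17, 0.19 and 0.094 in control animals 1 to 4. The lowest control lay above the highest occlusion animal, and the difference was -0.14 (SE 0.060, 0.91-fold, limma's unadjusted p = 0.0425, adjusted p = 0.977). It was -0.15 within slide 1, -0.13 within slide 2 and -0.13 without control 3. In the Cy5 channel alone, without the pool, it was 0.0098. The pericyte and smooth muscle list, of which 10 of 12 genes were tested, averaged -0.14 to 0.25 in occlusion animals and -0.10 to 0.13 in controls. Of its 11 genes on the array, 10 were above background on all 8 arrays and Cnn1 on none; the part of these cells in the Cox4i2 values was not tested. Cox4i1 read -0.032, -0.049, 0.078 and 0.14 in occlusion animals 1 to 4 and 0.18, 0.034, 0.27 and 0.16 in control animals 1 to 4. Its groups overlapped, with a difference of -0.13 (SE 0.075) that was -0.25 within slide 1 and -0.0002 within slide 2.

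Cox6a, Cox6b and Cox8 also come in forms of different tissues. Cox6a1, the widespread form, had a difference of 0.066 (SE 0.12). Cox6a2, the heart and muscle form, read 0.22, 0.10, 0.18 and 0.12 in occlusion animals 1 to 4 and 0.18, 0.16, 0.30 and 0.17 in control animals 1 to 4, a difference of -0.045 (SE 0.064). It was above background on all 8 arrays, at 1044 to 1441 Cy5 units. Of the 12 muscle markers, 7 were tested and averaged -0.12 to 0.070 in occlusion animals and -0.063 to 0.097 in controls. Of 9 on the array, 6 (Acta1, Atp2a1, Des, Mb, Myh7 and Tnni2) were above background on all 8 arrays, and Ckm, the muscle creatine kinase, on none. The part of muscle in the Cox6a2 signal was not tested. Cox6b2 had the lowest difference of all members and read 0.028, -0.13, -0.017 and -0.23 in occlusion animals 1 to 4 and -0.041, 0.0088, 0.43 and 0.30 in control animals 1 to 4. Controls 3 and 4, both of slide 1, were the high values, and the groups overlapped. The difference was -0.26 (SE 0.12, 0.83-fold, limma's unadjusted p = 0.0533) and -0.18 without control 3. It was -0.71 with the scanner software's ratios (unadjusted p = 0.00175) and -0.38 with median centring (unadjusted p = 0.0449), and it was -0.42 within slide 1 and -0.11 within slide 2. Its Cy5 signal was 112 to 192 units, a median of 2.44 times background.

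Cox8a, the widespread form of the smallest subunit, had a difference of 0.026 (SE 0.081). The 3 probes of the heart form Cox8h gave 0.037, -0.076 and -0.083, and the first had the widest range of any member, 1.08 over the 8 animals. That probe read 0.11, -0.65, 0.10 and -0.16 in occlusion animals 1 to 4 and -0.39, -0.40, 0.43 and -0.39 in control animals 1 to 4, at a median Cy5 signal of 2.17 times background. Cox5a and Cox5b, subunits on the matrix side of the enzyme, had differences of 0.046 for Cox5a and -0.046 and -0.053 for the 2 probes of Cox5b. Cox7a2 read -0.047, 0.079, -0.21 and 0.041 in occlusion animals 1 to 4 and -0.57, 0.16, 0.082 and 0.30 in control animals 1 to 4, with control 1 lowest, and a difference of -0.027 (SE 0.17). Cox7a2l, which joins complexes III and IV into supercomplexes, read -0.24, -0.11, -0.24 and -0.14 in occlusion animals 1 to 4 and -0.19, -0.11, -0.21 and -0.029 in control animals 1 to 4, a difference of -0.051 (SE 0.068). All 8 of its values lay below the pool, in both groups alike. The pool was made of these same 8 animals and no dye was swapped, so a shared offset is not read as a low level of the gene.

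The prefixes also take names that are no subunits. Cox4nb, now Emc8, is a subunit of the endoplasmic reticulum membrane complex and only a neighbour of Cox4i1 in the genome; its difference was -0.013 (SE 0.085). Cox6c1 is now listed as the pseudogene Cox6c-ps1, whose probe may read the parent gene too, at -0.11 (SE 0.073). Atp5s is now Dmac2l, at 0.011 (SE 0.11). With these 3 names, Ndufaf1, Cox7a2l and the untested Cox6b left out, 75 probes of 65 genes remained, 40 above 0 and 35 below, with a median of 0.0065. Complex IV then had 11 of 15 below 0 and a median of -0.046.

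Complex V, ATP synthase, had 8 of 15 probes above 0 and a median of 0.0077. The 5 subunits of F1, whose head binds the nucleotides and whose central stalk turns inside it, gave 1 above 0 and 4 below, between -0.089 and 0.049. The catalytic beta subunit Atp5b read 0.025, -0.036, -0.013 and -0.098 in occlusion animals 1 to 4 and -0.21, 0.043, 0.078 and 0.058 in control animals 1 to 4, a difference of -0.024 (SE 0.079). Control 1 lay below the other controls there. The alpha subunit Atp5a1 had a difference of 0.049 (SE 0.096) and the gamma subunit Atp5c1, part of the central stalk, -0.032 (SE 0.072). The peripheral stalk, which keeps the head from turning, gave 3 of 4 above 0: Atp5j (factor F6) at 0.18, Atp5f1 (subunit b) at 0.15, Atp5o (the OSCP subunit) at 0.0077 and Atp5h (subunit d) at -0.081. Atp5j read -0.075, 0.17, 0.22 and 0.038 in occlusion animals 1 to 4 and -0.33, 0.032, -0.13 and 0.074 in control animals 1 to 4. Atp5f1 read 0.047, -0.014, 0.25 and 0.15 in occlusion animals 1 to 4 and -0.015, 0.062, -0.21 and -0.0070 in control animals 1 to 4. Occlusion 3 was the highest animal and the groups overlapped at both genes.

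Atp5i, the small membrane subunit e that helps ATP synthase form dimers, had the smallest unadjusted p of the complex, 0.113 in limma's fit. It read 0.18, 0.21, 0.50 and 0.44 in occlusion animals 1 to 4 and 0.29, 0.17, 0.13 and 0.10 in control animals 1 to 4, with occlusion animals 3 and 4 highest, a difference of 0.16 (SE 0.091, 1.12-fold). It was 0.081 within slide 1 and 0.24 within slide 2. The c ring, the rotor through which protons pass, is made from copies of the same mature protein, encoded by the genes Atp5g1, Atp5g2 and Atp5g3. Their differences were -0.029 for Atp5g1, 0.026 and -0.11 for the 2 probes of Atp5g2 and 0.090 for Atp5g3, with standard errors of 0.080 to 0.12. The animal means over the complex were -0.083, 0.023, 0.14 and 0.088 in occlusion animals 1 to 4 and 0.019, 0.074, -0.062 and 0.082 in control animals 1 to 4, so the lowest and the highest of the 8 were both occlusion animals.

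**Figure D3:**
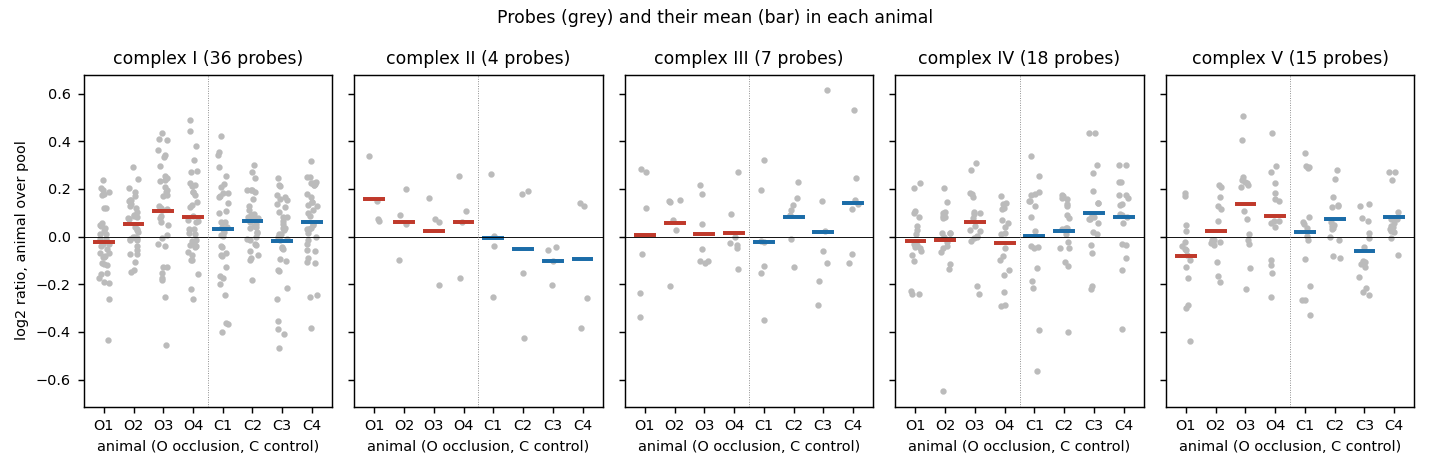
Log2 ratio to the pool of every tested probe (grey points) and their mean (bar; red for occlusion, blue for control) in each of the 8 animals, one panel per complex. The bars of complex II lie between 0.022 and 0.16 in occlusion animals and between -0.10 and -0.0071 in controls; in complex V both the lowest bar, -0.083, and the highest, 0.14, belong to occlusion animals.

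Genes with several probes give a view of the differences between probes. There were 8 genes with 18 tested probes; at 4 of them (Cox5b, Ndufa2, Ndufc2 and Ndufs8) the probes shared a sign and at the other 4 (Atp5g2, Cox8h, Ndufa9 and Uqcrb) they did not. The median gap between the probes of a gene was 0.081 and the largest 0.14, at Atp5g2. The group differences of the 2 probes of Ndufs8 lay 0.0043 apart, and occlusion 1 was the lowest at both, at -0.070 and -0.082. They parted at control 1 (0.22 and 0.062) and at control 3 (0.053 and 0.21). At the 2 probes of Ndufa2 occlusion 1 was the lowest, at -0.20 and -0.11, and occlusion 4 the highest, at 0.49 and 0.44. The probe positions overlap at each of these 2 genes, so their probes are not independent readings.

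The median range of a member over the 8 animals was 0.35, against 0.42 over all tested probes, and the median absolute group difference was 0.050, against 0.073. Over the 73 member probes measured on all arrays, occlusion 3 held the highest of the 8 values at 20 (27.4%) and occlusion 1 the lowest at 19 (26%). Over all 30756 complete probes those animals held these places at 7.66% and 9.51%. Both animals are in the occlusion group. The 966 other bright probes had occlusion 3 highest at 19.3% and occlusion 1 lowest at 13.8%, both above the shares over all probes. The same bright probes also had occlusion 3 lowest at 21.1% and occlusion 1 highest at 20.5%, whereas the members had them there at 9.59% and 6.85%. Control 3, which held the highest place at 24.3% and the lowest at 24.4% of all probes, did so at 15.1% and 19.2% of the members. The choroid plexus list was highest in occlusion 3, at 0.87, and -1.70 to -0.22 in the others; its part in the oxidative phosphorylation values of that animal was not tested. The red blood cell list was lowest in occlusion 1, at -0.84 against -0.11 to 0.42, and its part was likewise not tested.

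**Figure D4:**
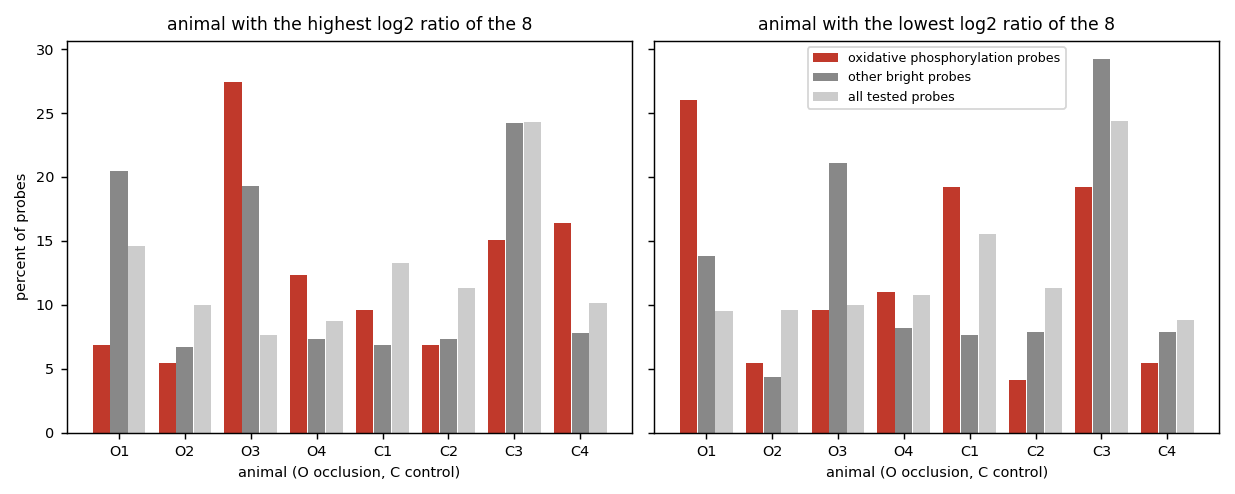
Percent of probes at which each animal (O occlusion, C control) held the highest (left) or the lowest (right) log2 ratio of the 8, for 73 oxidative phosphorylation probes (red), 966 other bright probes (dark grey) and all 30756 complete probes (light grey). Occlusion 3 leads the red bars on the left at 27.4% and occlusion 1 on the right at 26%.

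Complex means in control 3 ran from -0.10 (complex II) to 0.099 (complex IV). Those 2 lay outside the other 7 animals, at -0.093 to 0.16 for complex II and -0.026 to 0.082 for complex IV; the other 3 complexes lay within. The list of general neuron markers was -0.21 in control 3 and -0.14 to 0.079 elsewhere. Without control 3, Ndufv1 alone of the 80 probes had an unadjusted p under 0.05 in limma's fit, 0.0479, and 35 probes lay above 0 and 45 below. The medians were then 0.0041 for complex I, 0.14 for complex II, -0.037 for complex III, -0.058 for complex IV and -0.013 for complex V. No member had an adjusted p under 0.05 there, and 1 probe of the whole array had.

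**Figure D5:**
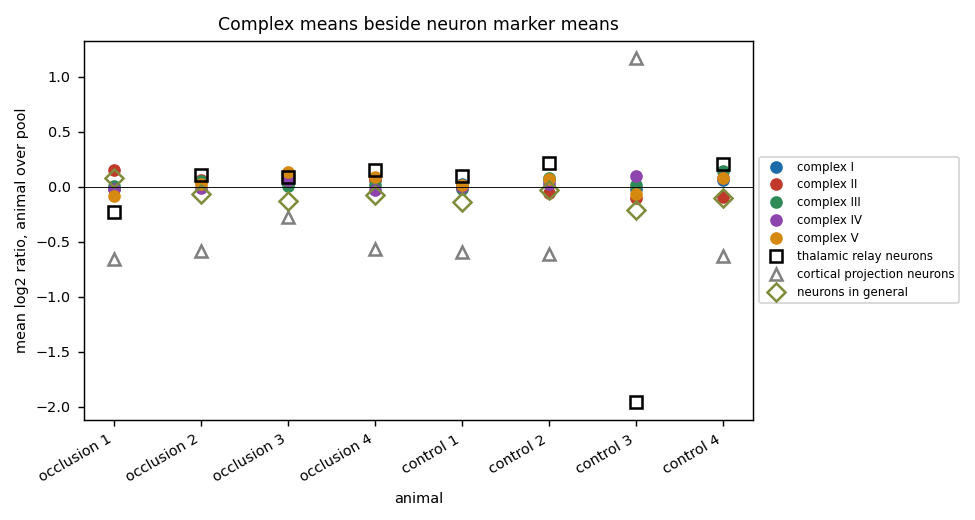
Mean log2 ratio to the pool of the tested probes of each complex (filled circles) and of 3 neuron marker lists (open symbols) in each animal. In control 3 the relay neuron list is at -1.96 and the cortical list at 1.17, while the 5 complexes stay between -0.10 and 0.099.

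Further genes of the pathway came from lists of names that the prefixes do not match. Each gene was counted by its brightest probe, and 0 had an adjusted p under 0.05 in limma's fit. Of 12 mobile carriers and further subunits, 10 were tested, 6 above 0 and 4 below, with a median of 0.026. Cyc1, the cytochrome c1 that completes complex III, had a difference of -0.20 (SE 0.077, unadjusted p = 0.0273); it was the only 1 of the 10 under 0.05. The 3 probes of cytochrome c, Cycs, gave 0.20, -0.042 and -0.029. Of 30 assembly factors, 22 were tested, 9 above 0 and 13 below, with a median of -0.045. Bcs1l, which inserts the Rieske protein into complex III, stood at -0.17 (SE 0.059, limma's unadjusted p = 0.020). Cox18, which inserts a mitochondrially encoded subunit of complex IV, also stood at -0.17 (SE 0.071, limma's unadjusted p = 0.0396). No other assembly factor was under an unadjusted 0.05 at its brightest probe, so 2 of the 22 were, both lower. Over all tested probes the share was 3.06%, with 1.25% lower. The other probe of Cox18 stood at -0.12 (SE 0.062, limma's unadjusted p = 0.0793). Sdhaf2 and Sdhaf3, which help assemble complex II, had positive differences at both probes each, of 0.073 to 0.21 and 0.083 to 0.16, while Sdhaf1 stood at -0.12.

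Regulators of these genes did not pass the test either. Of 20 regulators of mitochondrial biogenesis and transcription, 19 were tested, 6 above 0 and 13 below, with a median of -0.024 and 0 under an unadjusted p of 0.05 at their brightest probe. Nrf1, which encodes NRF-1, had a difference of -0.011 (SE 0.11), and Gabpa, the DNA-binding part of NRF-2, 0.048 and 0.012 at its 2 probes. Ppargc1a, which encodes PGC-1alpha, stood at 0.11 (SE 0.19) and its relative Ppargc1b at -0.21 (SE 0.17). Tfam, which packages and transcribes mitochondrial DNA, stood at -0.0013 (SE 0.076). Of 3 probes of Yy1, 1 had an unadjusted p of 0.0491 at 0.21, and the other two stood at -0.042 and -0.095.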

How the data were processed

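Cy5 and Cy3 spot intensities and log10 ratios (Cy5 over Cy3) were made by the authors with Feature Extraction 9.5.1.1, per the file headers; an aligner does not apply and probe positions are on build rn3. The deposited log10 values of the value table equal the scanner files' ratios within 1% at all 45018 spots. Per array, 68.3 to 80.2% of spots were well above background and 136 to 853 were outliers. From the mean and background intensities, limma 3.58.1 in R 4.3.3 gave normexp-corrected (offset 50), loess-normalized log2 ratios. Outlier spots were dropped, and replicate spots were averaged per probe. A probe entered the fit if 4 or more of the 8 arrays had it well above background in Cy5, with 2 values a group; such probes were fitted (lmFit, eBayes) with all 8 animals, two-sided, with Benjamini-Hochberg adjustment over 31690 probes; the fit was tested on simulated data. Named genes were those past an adjusted p of 0.05, the 3 smallest p and the largest range of each complex, and a panel of 34 genes, 30 of them matched, plus genes whose probes disagreed by sign with both over 0.1; other genes were named as examples after their values were seen. The members, lists and roles were chosen with earlier results of these data known. All 81 probes were matched to RefSeq names (48 by accession, 28 by symbol, 5 by synonym). The array labels show 4 animals a group; slides hold 2 of each.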

Additional observations from a re-analysis of the deposited data

Results flagged for a closer look

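Single animals stood apart from the other 3 of their group at 5 of 93 checks (a gap to the nearest animal above the 95% critical value of Dixon's test), where chance gives about 1 in 20 checks, or 4.65. Occlusion 3 was high for the complex I membrane subunit Ndufb8, at 0.23 with the other occlusion animals between -0.013 and 0.015. The same animal was high for the mean of complex IV, at 0.062 against -0.026 to -0.013. Control 3 was high for Cox6a2, at 0.30 against 0.16 to 0.18, and for the dim Cox8h probe A_44_P414273, at 0.43 against -0.40 to -0.39. Control 1 was low for the ATP synthase beta subunit Atp5b, at -0.21 against 0.043 to 0.078.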

How the results depend on the processing

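In the 22 alternative settings, 0 members had an adjusted p under 0.05 in limma's fit, and the smallest adjusted p of a named probe was 0.862. The count at an unadjusted p under 0.05, 2 as reported, was 1 with median centring or the scanner software's ratios (Cox6b2, lower), with Cy5 alone or probes above background on all arrays (Ndufv1), and with outlier spots kept (Cox4i2). It was 3 with the slide as a block (Sdhc and Atp5i higher, Cox6b2 lower), with array weights (Ndufb8 higher, Ndufv1 and Cox6b2 lower) and within slide 1 alone (Sdhc higher, Cox6b2 and Uqcrh lower). It was 0 with the replicate block and within slide 2 alone, and 0 to 3 when 1 animal was left out. The count was 0 without occlusion 1, occlusion 3 or occlusion 4, 1 without occlusion 2, control 3 or control 4, 2 without control 2 and 3 without control 1. Same-numbered animals did not deviate together (correlations -0.13, 0.13, 0.021 and 0.081). They always sat on different slides, so these correlations cannot show whether the numbers pair them. The median of complex IV was -0.0024 with median centring and -0.11 within slide 1. That of complex III was -0.060 in Cy5 alone, and that of complex II was 0.20 within slide 1 and 0.051 within slide 2. Fits within a slide tested fewer probes (74 members on slide 1, 76 on slide 2). The split of 42 above and 38 below 0 became 55 and 25 with median centring, 33 and 47 with array weights and 35 and 45 without control 3; the cause was not tested. Leaving out genes that are no subunits was chosen after seeing the data. Of 42 named probes, 15 kept their sign in every setting that measured them. With median centring of each array, the sign turned at Uqcrb (A_42_P668800) -0.060, Uqcrc2 0.0015, Cox7a2 0.015, Cox7a2l 0.00080, Atp5b 0.012, Atp5c1 0.0094 and Atp5g1 0.011. With the scanner software's ratios, the sign turned at Uqcrc1 -0.0068. In Cy5 alone, the sign turned at Sdhd -0.010, Cox4i2 0.0098, Uqcrb (A_44_P356291) -0.060, Uqcrfs1 -0.068, Cox6a1 -0.029, Cox6a2 0.021, Cox8a -0.014, Cox8h (A_44_P689394) 0.099, Atp5a1 -0.020 and Atp5o -0.021. With array weights, the sign turned at Uqcrc1 -0.0017, Uqcrb (A_44_P356291) -0.044, Uqcrfs1 -0.037 and Atp5o -0.0051. Within slide 1, the sign turned at Uqcrb (A_44_P428197) 0.047, Uqcrc1 -0.073, Cox8h (A_44_P414273) -0.29, Cox6a1 -0.043 and Atp5o -0.055. Within slide 2, the sign turned at Ndufs1 -0.044, Sdha -0.11, Uqcrb (A_44_P356291) -0.12, Cox5b (A_44_P517929) 0.034, Cox7a2 0.12, Atp5b 0.026, Atp5g1 0.085 and Atp5g2 (A_42_P841860) 0.049. Leaving out 1 animal at a time turned the sign of these differences somewhere in their range: Cox8h (A_44_P414273) -0.049 to 0.24, Uqcrb (A_44_P356291) -0.064 to 0.060, Uqcrc2 -0.078 to 0.0092, Cox5a -0.0013 to 0.094, Atp5g1 -0.094 to 0.076, Atp5a1 -0.0064 to 0.095, Cox6a1 -0.0078 to 0.17, Cox7a2 -0.21 to 0.075, Cox8a -0.0088 to 0.077, Atp5g2 (A_44_P184527) -0.0063 to 0.088, Atp5o -0.020 to 0.034, Uqcrb (A_42_P668800) -0.0030 to 0.054, Uqcrfs1 -0.037 to 0.073, Cox5b (A_43_P12860) -0.094 to 0.034, Sdha -0.00070 to 0.10 and Atp5b -0.090 to 0.0045. With 4 animals a group the number of arrays limits the precision, and Cox6b2, Cox8h and Cox6c1 were near background.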
